A study of Mus musculus with 16 samples.

Results

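The genes described here are 32 genes of fatty acid and triglyceride synthesis, chosen by name for their roles in making acetyl-CoA and palmitate, desaturating and elongating fatty acids, and joining them to glycerol. All 32 were found among the 13006 genes of the deposited table, and all 32 passed the low count filter that left 12918 genes for testing. Liver RNA came from mice labelled Humanized PXR-CAR-CYP3A4/3A7, a genotype that all 4 groups shared, so no group shows these genes with only the mouse receptors. The control group CV received propylene glycol as vehicle, and EE (ethinylestradiol, the estrogen of oral contraceptives, used to provoke cholestasis) was injected subcutaneously at 10 mg/kg on 7 days in the group EV. MI763F, which binds the nuclear receptor CAR and is known by its code name, was given orally at 2.5 mg/kg on 6 days starting at day 2, to the group CM without EE and to the group EM with EE. Each group held 4 libraries. The labels used here give no age or sex and do not tie libraries to separate animals, so the p-values refer only to the spread among these samples, which may be technical. Whether CV and EV mice were gavaged with the vehicle of MI763F is not stated.

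Hepatocytes build fatty acids from cytosolic acetyl-CoA, which acetyl-CoA carboxylase turns into malonyl-CoA and fatty acid synthase joins into palmitate. Desaturases then insert double bonds, elongases lengthen the chain, and acyltransferases, lipins and diacylglycerol acyltransferases assemble triglyceride for storage in droplets or export in lipoproteins. In liver the pathway is driven after feeding by SREBP-1c, the insulin-responsive product of Srebf1, and by the carbohydrate sensor ChREBP, the product of Mlxipl.

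Of the 32 genes, 27 had an entry in the RefSeq promoter table (GRCm38.p6, an earlier build than the GRCm39 named for these data), with 37 start sites in all. Scd1, Fads1, Gpat4, Dgat1 and Dgat2 had no entry. The 250 bases before a start are shown as examples for Acss2 and Thrsp, which fell strongly with EE, for Fasn, which did not pass the test, and for Mlxipl, the only gene with a sterol element match. The Acss2 window is chr2:155517793-155518042, plus strand, that of Thrsp is chr7:97417551-97417800, minus strand, that of Fasn is chr11:120824548-120824797, minus strand, and that of Mlxipl, the downstream of its 2 starts, is chr5:135106641-135106890, plus strand. Capitals mark CCAAT (the NF-Y core, read on both strands) and, in Mlxipl, TCACNCCAC (the core of the sterol regulatory element, read on both strands).
Acss2: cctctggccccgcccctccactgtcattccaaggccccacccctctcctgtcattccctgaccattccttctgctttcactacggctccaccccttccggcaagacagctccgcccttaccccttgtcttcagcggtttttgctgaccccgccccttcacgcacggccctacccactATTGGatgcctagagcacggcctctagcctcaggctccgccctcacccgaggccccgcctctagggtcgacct
Thrsp: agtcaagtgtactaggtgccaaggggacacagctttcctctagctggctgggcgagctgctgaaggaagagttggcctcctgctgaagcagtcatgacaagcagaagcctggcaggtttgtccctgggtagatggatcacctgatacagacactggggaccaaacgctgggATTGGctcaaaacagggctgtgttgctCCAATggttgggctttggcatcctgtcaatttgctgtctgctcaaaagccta
Fasn: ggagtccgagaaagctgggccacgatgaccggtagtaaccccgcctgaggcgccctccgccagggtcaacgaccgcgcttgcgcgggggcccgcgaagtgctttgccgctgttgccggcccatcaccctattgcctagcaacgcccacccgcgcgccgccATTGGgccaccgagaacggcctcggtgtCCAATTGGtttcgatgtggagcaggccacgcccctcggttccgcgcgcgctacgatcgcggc
Mlxipl: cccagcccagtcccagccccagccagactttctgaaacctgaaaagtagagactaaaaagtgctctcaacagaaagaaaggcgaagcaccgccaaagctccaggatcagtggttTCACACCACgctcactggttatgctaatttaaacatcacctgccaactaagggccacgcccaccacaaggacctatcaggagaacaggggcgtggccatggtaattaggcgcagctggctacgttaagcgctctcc
CCAAT or its reverse complement lay in 19 of the 37 windows (51.4%), against 33.8% of 32851 windows of the same length over all genes in the table. In Fasn it occurred 3 times, and 2 of these matches overlap on opposite strands. The E-box CACGTG lay in 5 of 37 windows (13.5%, against 6.02% of all windows), and TCACNCCAC in 1 (2.7%, against 1.05%). The palindromic estrogen response element (GGTCA and TGACC, 3 bases apart) lay in 0 of 37 and in 0.0639% of all windows. These are matches of letters and not measured binding sites.

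Library totals ran from 14115384 to 21473227 estimated counts. Levels below are CPM, counts scaled to a common library size by TMM factors, which ranged over 0.833 to 0.91 in CV and CM and over 1.1 to 1.23 in EV and EM. A gene was called when its adjusted p in edgeR's quasi-likelihood test was under 0.05. The liver label was matched by hepatocyte markers, whose 9 measured genes summed to between 98600 and 128000 CPM in CV. With EE, 8 of these 9 fell and their sum was 33800 to 41200 CPM in EV and 39100 to 58600 in EM, while 7 of 8 macrophage markers rose in EV vs CV (sums of 245 to 626 CPM in CV and 1440 to 1720 in EV). Cholangiocyte markers rose in 2 of 4 (sums of 40.4 to 57.5 CPM in CV and 131 to 197 in EV), and lymphoid and neutrophil markers in 4 of 6 (8.87 to 25.3 CPM and 69.2 to 152). Endothelial markers rose in 5 of 6 (69.7 to 155 CPM and 194 to 212) and proliferation genes in 5 of 5 (1.71 to 3.23 CPM and 41.8 to 58.7). Of 6 stellate cell markers 2 rose and 1 fell (169 to 308 CPM and 175 to 194). Over all genes 25.5% were called as higher and 24.9% as lower in EV vs CV. Against these shares the counts for the cholangiocyte and stellate lists say little. The part of these shifts in the results below was not tested, and in bulk liver fewer cells of a type and less RNA per cell cannot be told apart.

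EE lowered most of the synthesis genes, the 3 desaturases with a median log2 fold change of -2.58. Of the 32 genes, 24 fell and 3 rose in EV vs CV (27 called, 84.4%), where 50.4% of all 12918 genes were called, 24.9% as lower and 25.5% as higher. The median log2 fold change of the 32 was -0.77, against 0.00 over all genes. Falls larger than 2 on the log2 scale were those of Scd1, Acss2, Pnpla3, Elovl6, Fads1, Fads2 and Thrsp. Acly, Me1, Fasn, Hsd17b12 and Gpam did not pass. All EV libraries lay below all CV libraries for 24 of the 32 (75%), against 22.7% of all genes. With library totals in place of the TMM factors, 13 genes fell and 4 rose, so that 23.5% of calls were upward against 11.1% here. Over all genes 84.1% of calls were upward with library totals, against 50.5% here. The median of all genes then moved by 0.49 on the log2 scale in EV vs CV.

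**Figure D1:**
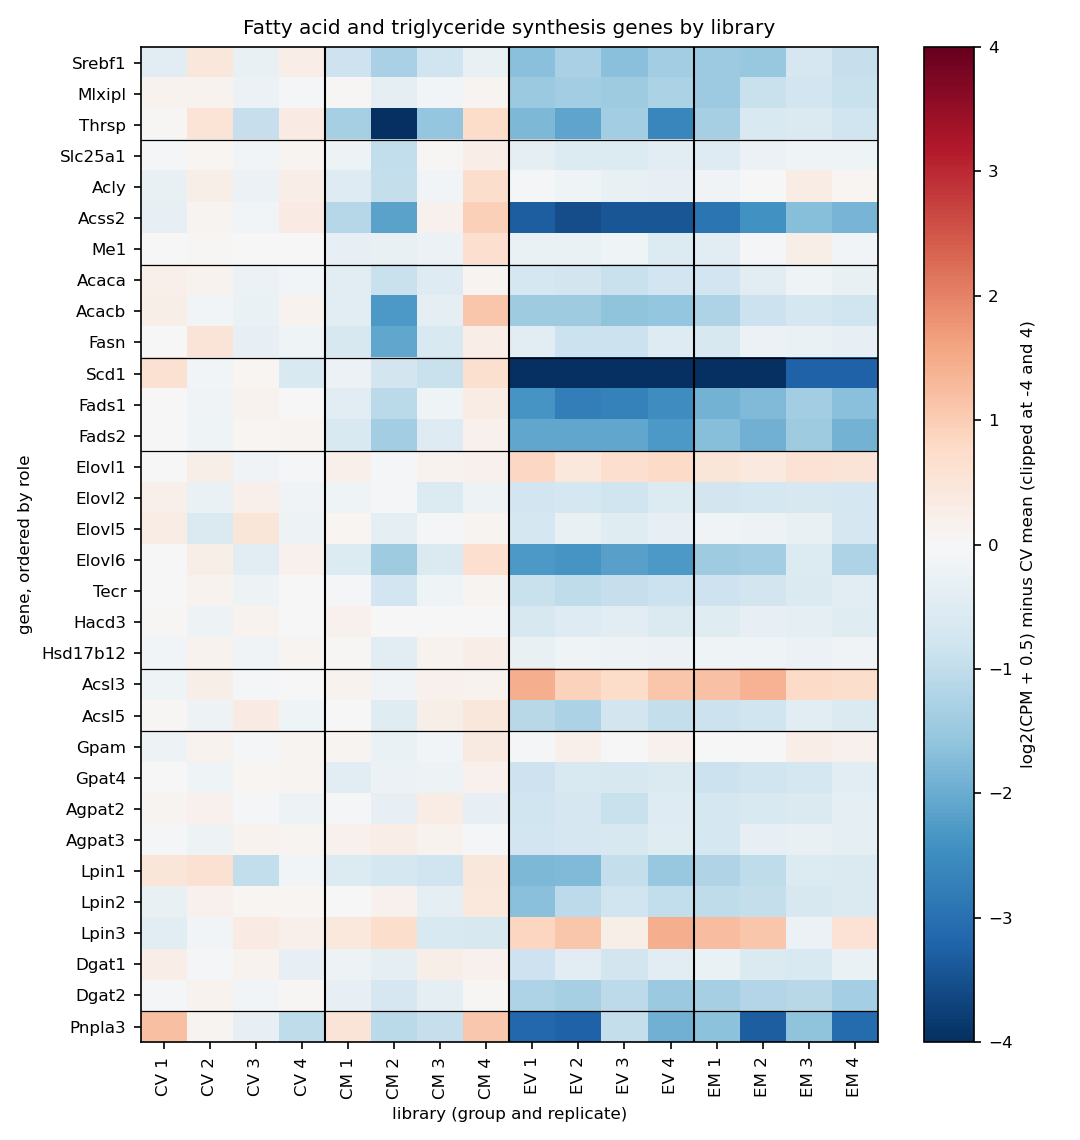
Each row is a synthesis gene and each column a library; colour gives log2(CPM + 0.5) minus the CV mean of that gene, clipped at -4 and 4, with black lines between roles and groups. The EV and EM columns are blue for most genes and darkest for Scd1, Acss2 and Pnpla3, while CM replicate 2 is bluer and CM replicate 4 redder than the other CM libraries.

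All 3 regulators fell with EE. Srebf1, which encodes SREBP-1, measured 90.3, 164, 98.8 and 145 CPM in CV replicates 1 to 4 and 37.8, 48.9, 37.6 and 45.8 CPM in EV (log2 fold change -1.55 ± 0.25 SE, adjusted p = 9.67e-05). No EV library reached the lowest CV library. Mlxipl, which encodes ChREBP, measured 389, 392, 303 and 335 CPM in CV and 126, 136, 133 and 145 CPM in EV (-1.39 ± 0.14, adjusted p = 1.35e-06). These EV values lie close together and well under the CV range. Thrsp, whose product Spot 14 promotes lipogenesis, measured 618, 861, 313 and 738 CPM in CV and 169, 136, 228 and 96.9 CPM in EV (-2.01 ± 0.72, adjusted p = 0.032). The Thrsp groups did not overlap, but its call was lost with library totals (adjusted p = 0.0758) and without any of 6 of the 8 libraries (CV or EV replicates 1, 2 and 4; highest adjusted p = 0.0805).

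The genes that supply acetyl-CoA and reducing power all had log2 fold changes below 0, but only Acss2 and Slc25a1 were called. Acss2, which makes acetyl-CoA from acetate in the cytosol, measured 128, 175, 151 and 203 CPM in CV and 16, 13.3, 14.7 and 14.5 CPM in EV, 11.2-fold lower (log2 fold change -3.49 ± 0.54 SE, adjusted p = 0.000119). The 4 EV libraries were nearly alike. Acly, which makes acetyl-CoA from citrate, measured 70.3, 102, 74.0 and 105 CPM in CV and 83.2, 76.2, 69.5 and 68.1 CPM in EV, with overlapping groups (-0.24 ± 0.27, adjusted p = 0.48). The mitochondrial citrate carrier Slc25a1 was called as lower (-0.47, adjusted p = 0.0429), but with library totals its value was 0.01, and leaving out any 1 of the 8 libraries ended the call (adjusted p between 0.0531 and 0.0898). The malic enzyme Me1, a source of NADPH, was at 93.1 ± 2.4 CPM in CV and 75.4 ± 7.8 in EV (SD, n = 4). Every EV library of Me1 lay below every CV library. Me1 did not pass (-0.30, adjusted p = 0.206), but was called in a fit to the CV and EV libraries alone (adjusted p = 0.0114).

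Both carboxylases fell and fatty acid synthase did not pass. Acaca, the cytosolic acetyl-CoA carboxylase, measured 17.7, 16.9, 13.1 and 14.4 CPM in CV and 9.19, 9.0, 8.03 and 8.88 CPM in EV (log2 fold change -0.82 ± 0.19 SE, adjusted p = 0.00199). Acacb, the isoform at mitochondria whose malonyl-CoA restrains fatty acid oxidation, measured 24.3, 19.1, 16.8 and 22.7 CPM in CV and 7.33, 7.39, 6.46 and 6.78 CPM in EV (-1.57 ± 0.47, adjusted p = 0.0131). The groups were apart for both genes, and scaling by library totals ended both calls (adjusted p = 0.138 for Acaca and 0.06 for Acacb). Fasn measured 311, 450, 250 and 278 CPM in CV and 232, 174, 173 and 218 CPM in EV (-0.69 ± 0.34, adjusted p = 0.104). Every EV library of Fasn lay below every CV library, and a fit to the CV and EV libraries alone called it (adjusted p = 0.0114).

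All 3 desaturases fell, each by more than 2 on the log2 scale. Scd1, the stearoyl-CoA desaturase that makes monounsaturated fatty acids, measured 1522, 927, 1058 and 650 CPM in CV and 30.5, 21.1, 22.4 and 17.3 CPM in EV, 45.5-fold lower (log2 fold change -5.51 ± 0.61 SE, adjusted p = 5.9e-06). The highest EV library was far under the lowest CV library. Fads1, the delta-5 desaturase of polyunsaturated fatty acids, measured 294, 270, 326 and 304 CPM in CV and 58.0, 43.6, 45.1 and 52.8 CPM in EV (-2.58 ± 0.22, adjusted p = 2.95e-07). Fads2, the delta-6 desaturase, measured 300, 265, 314 and 324 CPM in CV and 70.4, 71.1, 70.8 and 61.0 CPM in EV (-2.14 ± 0.23, adjusted p = 2.89e-06). Both sets of EV values were narrow and far from the CV values. Scd1 has close paralogs, and reads common to several of them may have been split in counting.

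**Figure D2:**
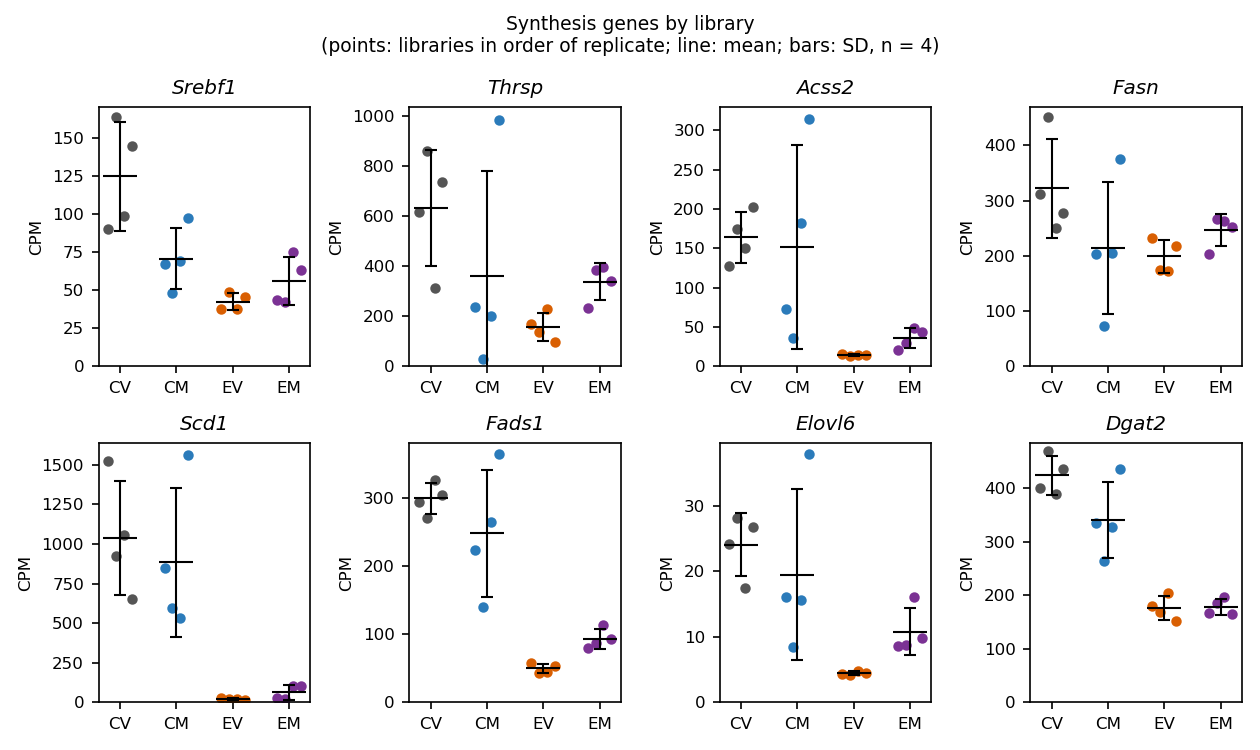
CPM on linear axes from 0 for 8 synthesis genes in the groups CV, CM, EV and EM; points are libraries, lines means and bars SD (n = 4). Scd1 falls from 650 to 1522 CPM in CV to 17.3 to 30.5 CPM in EV, Fasn shows less separation, and the CM libraries spread widely.

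Among the 7 elongation genes 5 fell and Elovl1 rose. Elovl6, which lengthens palmitate to stearate, measured 24.1, 28.2, 17.4 and 26.8 CPM in CV and 4.41, 4.18, 4.83 and 4.46 CPM in EV (log2 fold change -2.43 ± 0.37 SE, adjusted p = 6.59e-05). All EV libraries were under the lowest CV library by a wide margin. Elovl1, which acts on very long saturated chains, went from 41.4 ± 5 to 66.4 ± 7.8 CPM (SD, n = 4; 0.68, adjusted p = 4.75e-05) and its EV libraries lay above all CV libraries. The polyunsaturated fatty acid elongases Elovl2 (-0.72) and Elovl5 (-0.51) fell, as did Tecr (-0.93), the reductase of the last step of each elongation round, and Hacd3 (-0.55), a dehydratase of the same cycle. The Elovl5 groups overlapped, and its call was lost with library totals (adjusted p = 0.913), in a fit to the CV and EV libraries alone (adjusted p = 0.074) and without any of CV replicates 1 and 3 and EV replicates 1, 3 and 4 (highest adjusted p = 0.154). Scaling by library totals ended the calls of Elovl2 and Hacd3 (adjusted p = 0.102 and 0.526). Hsd17b12, the ketoacyl reductase of the cycle, was at 100 ± 10 CPM in CV and 85.4 ± 3.7 in EV and did not pass (adjusted p = 0.128), but was called in the fit to the CV and EV libraries alone (adjusted p = 0.0393). The acyl-CoA synthetases moved apart: Acsl3, found on lipid droplets, rose from 22.8 ± 2.7 to 48.6 ± 11 CPM (1.09, adjusted p = 9.36e-05) and Acsl5 fell from 301 ± 52 to 148 ± 23 CPM (-1.03, adjusted p = 0.00027).

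Of the 9 genes of glycerolipid assembly 7 fell, and the first acyltransferase of the mitochondria did not pass. Gpam, that acyltransferase, measured 32.6, 41.2, 35.6 and 40.6 CPM in CV and 36.0, 43.2, 36.8 and 42.2 CPM in EV (log2 fold change 0.08 ± 0.13 SE, adjusted p = 0.648). The 2 ranges coincide, and with library totals Gpam was called as higher (0.56, adjusted p = 0.002). Dgat2, which adds the last acyl chain to newly made fat, measured 401, 468, 389 and 436 CPM in CV and 180, 169, 205 and 152 CPM in EV (-1.26 ± 0.13, adjusted p = 2.09e-06). Its groups were far apart. Dgat1, which catalyses the same reaction, fell less (-0.64), as did the acyltransferases Gpat4 (-0.68), Agpat2 (-0.72) and Agpat3 (-0.64), and library totals ended these 4 calls (adjusted p between 0.122 and 0.444). Lpin1, a phosphatidate phosphatase and coactivator, measured 157, 171, 56.8 and 103 CPM in CV and 32.1, 32.7, 58.0 and 39.1 CPM in EV (-1.59 ± 0.35, adjusted p = 0.00179). CV replicate 3 lay just below EV replicate 3, so these groups overlapped. Lpin2 fell (-1.11, adjusted p = 0.00019), while the less abundant Lpin3 rose from 3.37 ± 0.85 to 6.99 ± 2.5 CPM (1.05, adjusted p = 0.043). The Lpin3 call was lost without any of CV or EV replicates 1, 2 and 4 (highest adjusted p = 0.128).

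Pnpla3, a droplet protein that remodels triglyceride and is a known SREBP-1c target, was low and variable. It measured 13.4, 6.11, 4.40 and 2.54 CPM in CV and 0.186, 0.146, 2.66 and 1.10 CPM in EV (log2 fold change -2.72 ± 0.94 SE, adjusted p = 0.0271). The groups overlapped at 1 library, EV replicates 1 and 2 rested on 4 and 3 estimated counts, and the call was lost without CV replicate 1 or EV replicate 1, 2 or 4 (highest adjusted p = 0.0928).

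The same question was put to the libraries given MI763F, in EM vs CM, which shares no library with EV vs CV. Both comparisons came from the same fit and share its estimate of each gene's spread. Their calls are therefore not fully independent. There 15 of the 32 genes fell and 2 rose (17 called, 53.1%), where 38.1% of all genes were called, 18.6% as lower and 19.4% as higher. All 17 were also called in EV vs CV, and 10 genes were called in EV vs CV only. Signs were the same for 30 of the 32 genes, Acly and Fasn being the exceptions, and Pearson's r between the 2 sets of log2 fold changes was 0.91 across these 32 genes (Spearman's rho = 0.821), a description over genes, which are not independent replicates. With library totals 8 fell and 4 rose, so upward calls made up 33.3% in place of 11.8%. Over all genes upward calls then made up 86.3% in place of 51%, and the shift of the all-gene median was 0.38. The size of the change was smaller in EM vs CM for 31 of 32 genes, all but Pnpla3 (-2.94). Signs, correlation and sizes were compared for these 32 genes only. Over all genes there were also fewer calls in EM vs CM (4917) than in EV vs CV (6513), so the smaller changes are not shown to be particular to the 32. Scd1 was 13.7-fold lower (-3.78 ± 0.56, adjusted p = 0.000145), Acss2 4.21-fold lower (-2.07, adjusted p = 0.00558), Fads1 (-1.42), Fads2 (-1.25), Mlxipl (-0.91) and Dgat2 (-0.93) fell, and Elovl1 (0.38) and Acsl3 (0.98) rose. The Pnpla3 call was lost without CM replicate 1 or 4 or EM replicate 2 or 4. Leaving out CM replicates 2 and 4 together ended the calls of Pnpla3 (adjusted p = 0.0778), Elovl1 (adjusted p = 0.0633) and Elovl2. Srebf1 (-0.33, adjusted p = 0.301), Thrsp (-0.10, adjusted p = 0.93), Acaca (-0.02, adjusted p = 0.946), Elovl6 (-0.85, adjusted p = 0.0656) and Lpin1 (-0.51, adjusted p = 0.271) did not pass. Elovl6 was called by DESeq2, and by edgeR without CM replicate 2 or EM replicate 3 (lowest adjusted p = 0.00904). The test of the difference itself, the interaction of MI763F and EE, called 0 of the 32 genes, as described below.

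**Figure D3:**
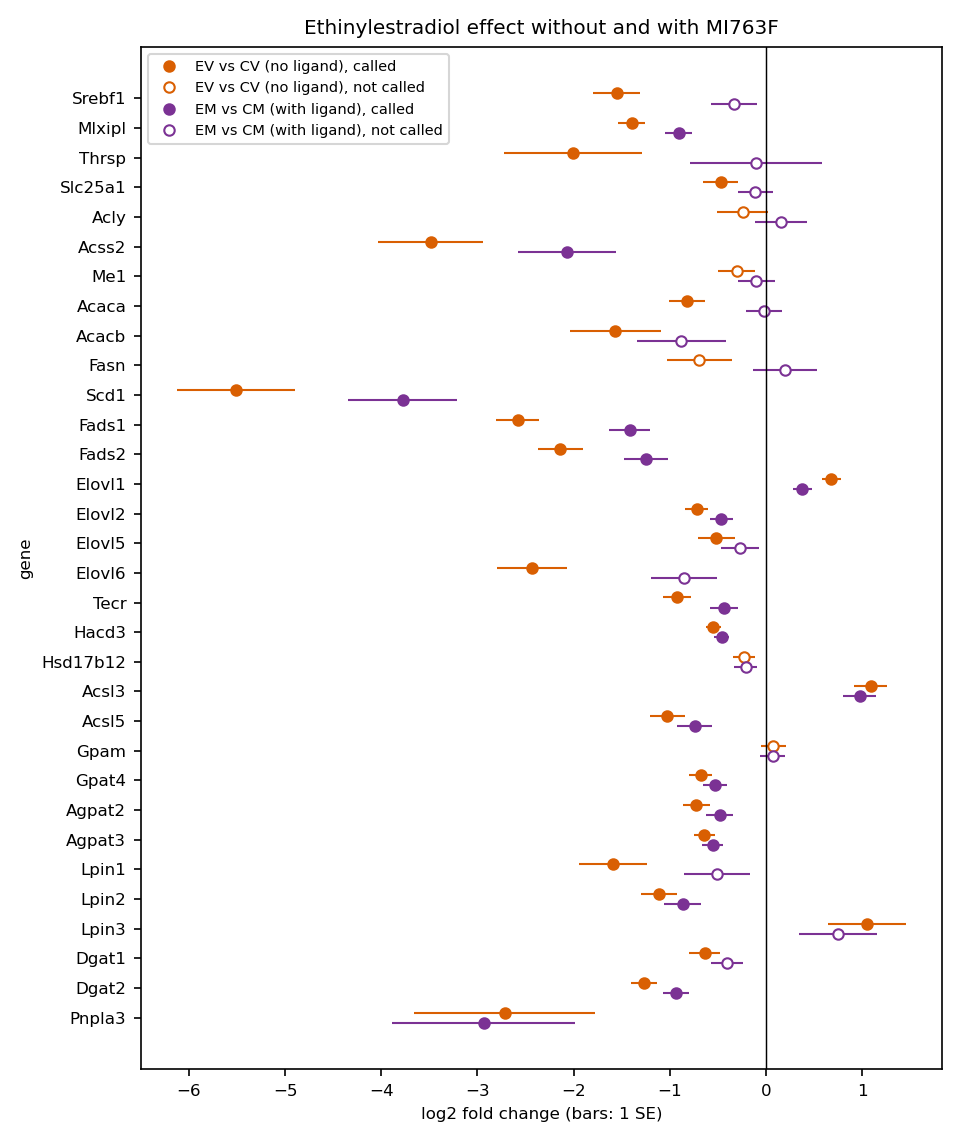
Log2 fold changes with 1 SE for EE without the ligand (EV vs CV, orange) and with it (EM vs CM, purple) for the 32 genes; filled points were called. The purple points lie nearer to 0 than the orange points for 31 genes, and Scd1 is lowest in both at -5.51 and -3.78.

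Without EE, MI763F left no synthesis gene past the test, and the CM libraries differed widely among themselves. In CM vs CV 0 of the 32 genes were called by edgeR, where 0.0929% of all genes were called. At an unadjusted p under 0.05 there were 3 (10.5% of all genes), namely Srebf1, Fads2 and Dgat2, all lower. DESeq2 called 1 of the 32 (Srebf1, adjusted p = 0.0499), and 238 of all 13006 genes. The log2 fold change was below 0 for 22 of 32 genes (68.8%, against 50.7% of all genes), with a median of -0.11. Leaving out CM replicate 4 moved that median to -0.30, and leaving out CM replicate 2 instead moved it to -0.01, so it rested on single libraries.

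Within CM, replicate 2 was the lowest library for 22 of the 32 genes and replicate 4 the highest for 24. Ranks and ranges were not taken over other genes. Leaving out CM replicate 4 also moved the calls over all genes in CM vs CV from 12 to 39. Thrsp measured 237, 30.9, 202 and 985 CPM in CM replicates 1 to 4, a 31.9-fold range. Acss2 measured 73.0, 36.2, 182 and 315 CPM. Acacb measured 15, 3.78, 16.1 and 44.8 CPM. In each of these genes replicate 2 was the lowest and replicate 4 the highest, and replicate 4 exceeded every CV library. Fasn measured 203, 73.3, 205 and 375 CPM. Elovl6 measured 16.1, 8.46, 15.7 and 37.9 CPM, and Acly 60.3, 43.9, 79.6 and 142 CPM. Fasn in CM replicate 2 was below all 15 other libraries. Scd1 measured 850, 594, 534 and 1560 CPM, Fads1 223, 140, 265 and 364 CPM, and Fads2 198, 115, 208 and 340 CPM. For Fads1 and Fads2, 3 of 4 CM libraries lay under the lowest CV library and replicate 4 lay above the highest. Srebf1 measured 67.5, 48.4, 69.4 and 97.7 CPM, Acaca 11.4, 8.02, 10.7 and 16.8 CPM, and Lpin1 77.2, 68.9, 64.2 and 153 CPM. For Srebf1, 3 of 4 CM libraries lay under the lowest CV library. Mlxipl (362, 273, 325 and 378 CPM), Gpam (40.2, 30.8, 34.8 and 48.3 CPM), Dgat2 (335, 265, 327 and 437 CPM) and Pnpla3 (8.27, 2.37, 2.70 and 12.4 CPM) overlapped CV. The median ratio of the highest to the lowest library over the 32 genes was 1.95 in CM, against 1.37 in CV, 1.28 in EV and 1.38 in EM.

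With EE, MI763F raised Fads1, and the other synthesis genes did not pass. Fads1 measured 79.6, 86.8, 113 and 92.3 CPM in EM against 43.6 to 58.0 CPM in EV (log2 fold change 0.90 ± 0.21 SE, adjusted p = 0.0455), higher in 4 of 4 libraries than any EV library. It was the only call among the 32 in EM vs EV (3.12%, where 1.69% of all genes were called), and it was lost with library totals (adjusted p = 0.105) and without any of EV replicates 1 to 4 or EM replicates 2 to 4 (highest adjusted p = 0.176). DESeq2 also called Elovl6, and a fit to the EV and EM libraries alone also called Acss2 and Elovl6. The median log2 fold change of the 32 genes was 0.26, against 0.00 over all genes, and 27 of 32 values were above 0 (84.4%, against 49.5% of all genes). With library totals the median of the 32 was 0.15 and 23 values were above 0, while the median over all genes was -0.11. The EM libraries lay above all EV libraries for 7 genes (21.9%, against 6.56% of all genes), namely Thrsp, Acss2, Acacb, Fads1, Fads2, Elovl6 and Tecr.

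The EM values of the other genes show how far they stood from the controls. Scd1 measured 28.7, 19.5, 104 and 105 CPM in EM, with replicates 1 and 2 in the EV range and replicates 3 and 4 above it, and all 4 far below CV (EM vs CV -4.01 ± 0.57, adjusted p = 8.95e-05). Acss2 measured 20.7, 29.6, 49.4 and 44.3 CPM, above every EV library and below every CV library. Elovl6 measured 8.54, 8.78, 16.2 and 9.88 CPM, and Fads2 91.2, 79.1, 111 and 80.1 CPM. Both lay between the EV and CV ranges. Thrsp measured 234, 384, 398 and 340 CPM, reaching the lowest CV library in 3 of 4 cases, and Mlxipl measured 128, 190, 205 and 191 CPM. Srebf1 measured 43.6, 42.3, 75.4 and 63.1 CPM, below all CV libraries. Acaca measured 8.92, 11.3, 13.5 and 12.6 CPM, Acacb 8.49, 11, 12.4 and 11.6 CPM, and Lpin1 48.7, 55.4, 76.2 and 75.2 CPM. Fasn measured 203, 266, 263 and 252 CPM, Acly 78.8, 88.0, 107 and 90.5 CPM, and Gpam 37.0, 37.6, 44.9 and 42.3 CPM. These last 3 genes overlapped the CV range. Dgat2 stayed at the EV level, with 166, 186, 197 and 165 CPM (EM vs EV 0.02 ± 0.13, adjusted p = 0.979), as did the low values of Pnpla3, with 1.44, 0.122, 1.51 and 0.215 CPM.

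In EM vs CV, 19 of the 32 genes fell and 2 rose (21 called, 65.6%, where 40.6% of all genes were called, 20% as lower and 20.7% as higher). With library totals 9 fell and 4 rose, 30.8% of calls upward against 9.52% here. Over all genes the upward share of calls was 85.7% with library totals against 50.8% here. CV is shared with EV vs CV, so these counts are not independent of each other. EM replicate 1 was the lowest EM library for 21 of the 32 genes and EM replicate 3 the highest for 19.

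**Figure D4:**
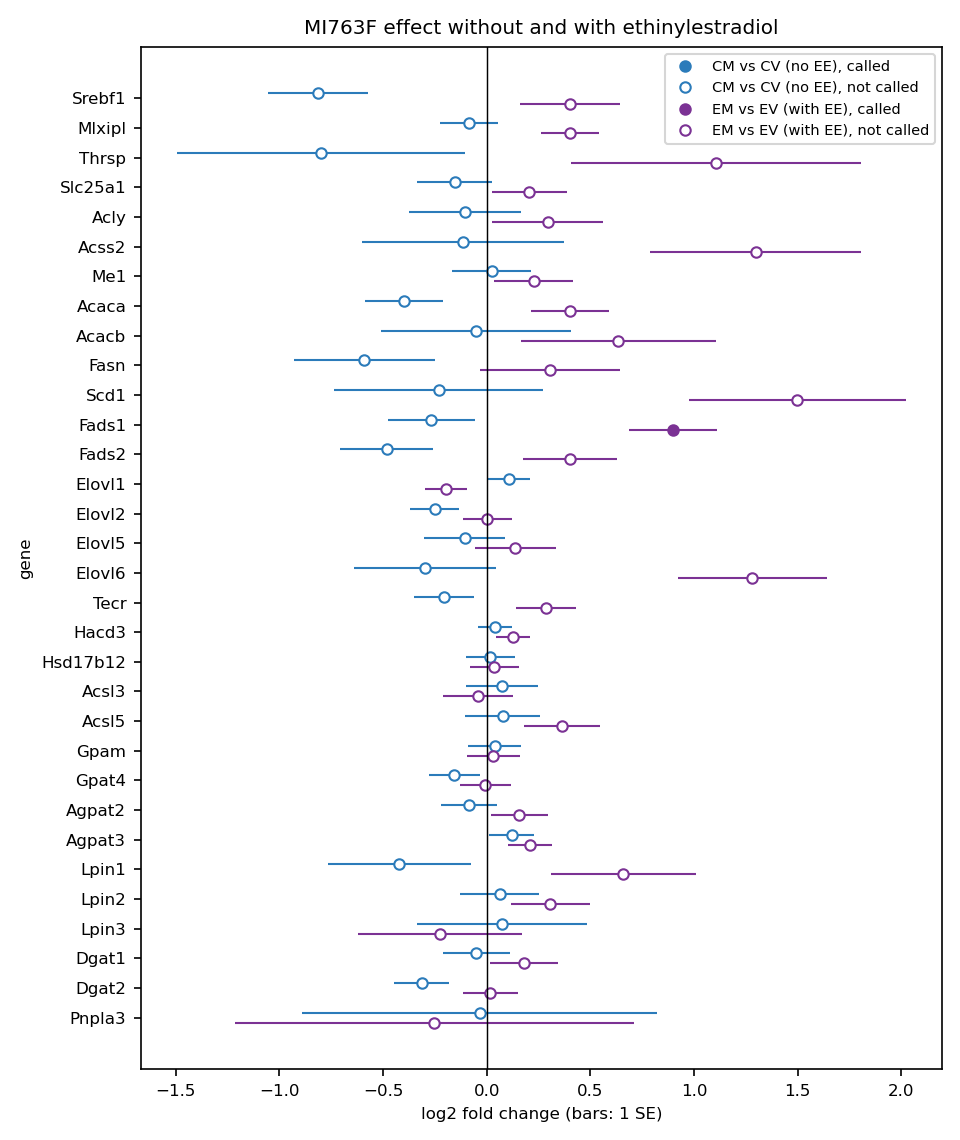
Log2 fold changes with 1 SE for MI763F without EE (CM vs CV, blue) and with EE (EM vs EV, purple) for the 32 genes; filled points were called. Fads1 with EE, at 0.90, is the only filled point, and most blue points lie below 0 while most purple points lie above it.

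The interaction of MI763F and EE called 0 of the 32 genes by edgeR (0.132% of all genes were called), with 10 at an unadjusted p under 0.05 (13.6% of all genes), of which 9 were positive. DESeq2 called 3, namely Srebf1 (1.22), Fads1 (1.16) and Elovl6 (1.58), where it called 462 of all 13006 genes. Without CM replicate 4 edgeR called 4, namely Acaca (1.03), Fads1 (1.41), Fads2 (1.20) and Elovl6 (2.13), where it called 95 of all 12946 genes tested. With CM replicates 2 and 4 both left out it called 1 (Fads1, adjusted p = 0.0498), and 11 of all 12977 genes tested. That setting was chosen after the values were seen. The median interaction was 0.31 on the log2 scale, against 0.01 over all genes. It was 0.49 without CM replicate 4, 0.21 without CM replicate 2 and 0.20 with library totals.

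Around these enzymes, a wider list of 97 tested genes gave 44 falls in EV vs CV (45.4%, against 24.9% of all genes) and 21 rises (21.6%, below the 25.5% of all genes). Lipid droplet and lipolysis genes were the class with more rises than falls (9 and 5 of 20). Cidec, a droplet fusion protein typical of adipocytes and fatty liver, measured 1.14, 0.153, 1.99 and 0.766 CPM in CV and 87.3, 132, 116 and 107 CPM in EV (log2 fold change 6.75 ± 0.45 SE, adjusted p = 4.42e-08). Cidea, its relative, was at 0 to 0.57 CPM in CV and measured 24.7, 38.4, 37.9 and 21.1 CPM in EV (adjusted p = 2.22e-05). Both were near absent in every library without EE, and the fold of Cidea rests on few counts in CV. The droplet coat protein Plin2 rose from 209 ± 61 to 696 ± 34 CPM (SD, n = 4; 1.73, adjusted p = 2.88e-05) and the lipolysis inhibitor Hilpda rose (1.75, adjusted p = 0.00157). Scd2, a stearoyl-CoA desaturase expressed mainly outside the adult liver, went the other way from Scd1, from 1.94 ± 0.71 to 6.90 ± 0.96 CPM (1.83, adjusted p = 1.79e-05). The acyltransferase Gpat3 (1.82), the NADPH-producing enzyme G6pdx (2.26) and the SREBP-retaining protein Insig2 (1.57) also rose. Fabp4, a fatty acid carrier of adipocytes, macrophages and endothelium, was the only measured gene of 7 listed adipocyte markers, and rose from 10.7 ± 3.4 to 1030 ± 370 CPM (6.58, adjusted p = 3.6e-07); the part of such cells in the rises was not tested.

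Among the wider list's largest falls were lipases, droplet proteins and fatty acid carriers. Ces1d, a triglyceride hydrolase, measured 770, 896, 982 and 878 CPM in CV and 68.6, 65.2, 82.8 and 44.5 CPM in EV (log2 fold change -3.76 ± 0.21 SE, adjusted p = 6.76e-09). Hsd17b13, a hepatocyte droplet enzyme, fell from 329 ± 20 to 42.4 ± 6 CPM (SD, n = 4; -2.96, adjusted p = 2.92e-07). Hepatic lipase Lipc (-2.89), the bile acid and fatty acid CoA ligase Slc27a5 (-2.38), the coactivator Ppargc1b (-2.33), the Thrsp relative Mid1ip1 (-2.15) and the fatty acid binding protein Fabp1 (-2.05) fell as well. Vldlr was also called, with 0.105 to 0.146 CPM in EV (10 estimated counts over the 4 libraries) against 2.75 to 3.27 CPM in CV. By class, 10 of 14 secretion and uptake genes, 9 of 13 NADPH and acetyl-CoA supply genes, 11 of 21 regulators and 7 of 15 other synthesis enzymes fell, and 2, 2, 4 and 2 rose. Among 14 glycerolipid genes 2 fell and 2 rose. These class counts of rises are under the 25.5% of all genes called as higher, and the falls of the glycerolipid class are under the 24.9% called as lower. With library totals the list gave 27 falls and 43 rises, and its droplet class 4 falls and 11 rises. Over all 12918 genes that setting gave 1329 falls and 7048 rises. The balance of falls and rises in the list depends on the scaling, as does that of all genes.

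MI763F in EE mice raised 6 of the 97 genes and lowered 0 (1.51% and 0.178% of all genes). Ces1d measured 199, 276, 274 and 252 CPM in EM (log2 fold change 1.94 ± 0.2 SE against EV, adjusted p = 0.000196), above all EV and below all CV libraries. Hsd17b13 (1.11, adjusted p = 0.0342), Mid1ip1 (1.25, adjusted p = 0.0495), Lipc (1.09, adjusted p = 0.0402), Slc27a5 (0.62, adjusted p = 0.0402) and Vldlr (1.72, adjusted p = 0.0445, at 34 estimated counts in EM) rose, and each of these 5 calls was lost with library totals and in at least 6 of the 8 fits that left out a library. DESeq2 did not call Vldlr (adjusted p = 0.0637), a fit to the EV and EM libraries alone did not call Mid1ip1 (adjusted p = 0.0726) or Slc27a5 (adjusted p = 0.0567), and the fit with no low count filter did not call Mid1ip1 (adjusted p = 0.0512). Over the 97 genes DESeq2 gave 11 rises and 2 falls (487 and 99 of all 13006 genes). Library totals gave 1 rise and 0 falls (75 and 52 of all 12918 genes). Cidec (-1.21, adjusted p = 0.0847) and Plin2 (-0.69, adjusted p = 0.186) did not pass, although DESeq2 called Cidec as lower (adjusted p = 0.0187). Without EE, G0s2, an inhibitor of adipose triglyceride lipase, was the only one of the 97 to be called, rising from 19.1 to 30.0 CPM in CV to 40.8 to 72.8 CPM in CM (1.26 ± 0.22, adjusted p = 0.0469). DESeq2 called 3 of the 97 as higher, and 168 of all 13006 genes. The G0s2 call was lost with library totals, in a fit to the CV and CM libraries alone (adjusted p = 0.133) and without any of CV replicates 1, 2 and 4 and CM replicates 1 to 3 (highest adjusted p = 0.173).

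**Figure D5:**
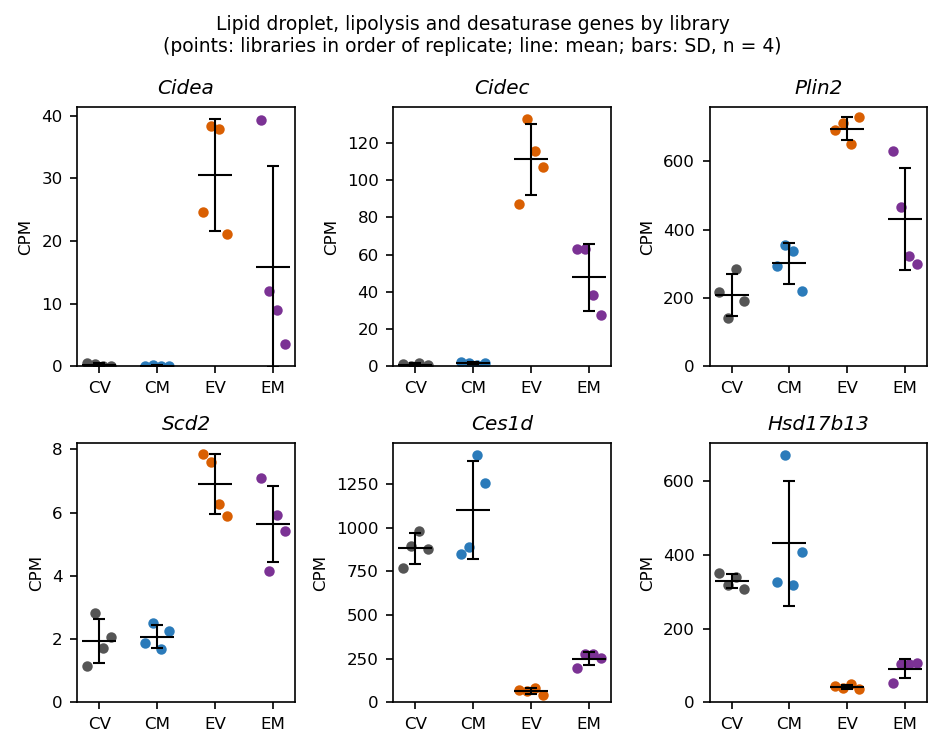
CPM on linear axes from 0 for 6 droplet, lipolysis and desaturase genes in the groups CV, CM, EV and EM; points are libraries, lines means and bars SD (n = 4). Cidea, Cidec, Plin2 and Scd2 are higher and Ces1d and Hsd17b13 lower in EV than in CV, with EM between EV and CV for most genes.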

How the data were processed

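Liver poly(A) RNA was sequenced from 16 libraries, 4 per group. The estimated counts are whole numbers deposited by the authors; per the submitters' processing notes STAR, Salmon and GRCm39 were used, while for versions, annotation, counting step and strand the sources used here give nothing. They were tested as counts without further rounding. Groups and replicate numbers came from titles. Symbols came from a GENCODE M21 name table and matched 12692 identifiers. The most alike pair of libraries had equal values in 3.24% of genes.

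Counts were filtered with filterByExpr (12918 genes), scaled by TMM, and tested by edgeR's quasi-likelihood test (version 4.0.16, R 4.3.3, robust, with a coefficient for each group and 12 residual degrees of freedom), with Benjamini-Hochberg adjustment over all genes for each of 6 contrasts; standard errors come from dividing the log2 fold change by the root of F. Alternatives were RLE factors, library totals, no filter, DESeq2 1.42.0, a fit restricted to the compared groups, a replicate block, and each library left out. The members and lists were chosen with earlier results of these data known. Values in every library are given for a fixed set of regulators and committed enzymes, members called for MI763F or the interaction, and members changed by EE by at least 1.5 on the log2 scale; of the wider list, up to 8 rises and 8 falls and any call for MI763F. The procedure was tested on simulated counts. The 250 bases upstream of starts came from RefSeq's table. Figures used matplotlib 3.10.9.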

Additional observations from a re-analysis of the deposited data

Results flagged for a closer look

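In 4 of 128 groups of 4 libraries over the 32 synthesis genes, 1 library lay far from the other 3 by Dixon's test. Chance flags about 1 in 20 groups. Me1 in CM replicate 4 was at 147.5 CPM against 74.4 to 79.7 in the other CM libraries, and Lpin1 in the same library was at 153 CPM against 64.2 to 77.2. Acsl3 in CM replicate 2 was at 20.5 CPM against 24.9 to 25.5, and Fads2 in EV replicate 4 was at 61.0 CPM against 70.4 to 71.1.

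The effect of MI763F on Ces1d differed with EE by the interaction test (1.62 on the log2 scale, edgeR adjusted p = 0.0223). The ligand effect was 0.32 without EE (adjusted p = 0.591) and 1.94 with EE. The interaction call was lost without CM replicate 1, EV replicate 1 or 2, or EM replicate 3 or 4 (highest adjusted p = 0.085) and with CM replicates 2 and 4 left out (adjusted p = 0.059).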

How the results depend on the processing

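Counts of called synthesis genes moved as follows. With library totals EV vs CV gave 17 in place of 27, EM vs CV 13 in place of 21 and EM vs EV 0 in place of 1. Over all genes the same 3 comparisons gave 8377 calls in place of 6513, 6979 in place of 5251 and 127 in place of 218. DESeq2 gave 1 in CM vs CV, 2 in EM vs EV and 3 in the interaction, and a fit to the groups compared alone gave 3 in EM vs EV. Leaving out CM replicates 2 and 4 together gave 1 in the interaction. With each library left out in turn the counts ran from 22 to 25 in EV vs CV, 15 to 22 in EM vs CM, 18 to 20 in EM vs CV, 0 to 2 in EM vs EV, 0 to 4 in the interaction and 0 throughout in CM vs CV. Slc25a1 in EV vs CV reversed with library totals (0.014); the library totals carry no composition factors, which shifts all genes together. RLE factors and no low count filter left all 6 counts as they were. With the replicate block the counts were 24, 0, 1, 17, 19 and 0 for EV vs CV, CM vs CV, EM vs EV, EM vs CM, EM vs CV and the interaction. The block ended the calls of Thrsp (adjusted p = 0.0616), Elovl5 (0.0708) and Lpin3 (0.0618) in EV vs CV, of Lpin1 (0.0716) and Dgat1 (0.0569) in EM vs CV, of Vldlr (0.0774) in EM vs EV and of G0s2 (0.0895) in CM vs CV, the only call there in the wider list. Same-numbered libraries correlated between -0.061 and 0.107 in their deviations from group means (2 of 24 pairs over 0.1), and 6 of 16 libraries correlated best with their own number, so the numbers were not taken as pairs. Low counts limit Pnpla3, Vldlr and Cidea.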

Other observations

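Within EM, the library with the lowest synthesis genes was also the highest for the droplet genes Cidea and Plin2 and for Fabp4. Fabp4 is a carrier of adipocytes, macrophages and endothelium, so its level does not single out a cell type. The other droplet genes were not ranked by library, so a link between synthesis and droplet genes was not tested. EM replicate 1, the lowest EM library for 21 of the 32 synthesis genes, measured 39.3 CPM of Cidea against 11.9, 8.97 and 3.54 in EM replicates 2 to 4. For Plin2 the values were 632, 467, 324 and 301 CPM, and for Fabp4 810, 408, 307 and 284 CPM. Mid1ip1 went the other way, with 16.6, 24.9, 40.7 and 41.4 CPM. The order of replicates has no meaning, and these values describe 4 libraries.

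In CM, replicate 2 was the lowest library for 22 of 32 synthesis genes. It was the highest CM library for Hsd17b13, at 671 CPM against 318 to 407 in the other CM libraries. It was also the highest for Fabp4, at 24.6 CPM against 6.46 to 11.2. Ranks were not taken over other genes in CM, so a link with droplet genes was not tested there either.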
